A study of Mus musculus with 5 samples.

Results

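The cadherins and non-clustered protocadherins were examined in peak lists of H3K27me3, the histone mark placed by Polycomb Repressive Complex 2 (PRC2), from mouse embryonic fibroblasts (MEFs). The genes were taken by name, as every protein-coding gene on chromosomes 1 to 19 whose symbol starts with Cdh or Pcdh followed by a digit. This gave 33 genes of 21418 in the GENCODE vM1 annotation of mm9. The rule itself uses no measured value, but the family was picked with earlier results of these data known. The MEFs came from an embryo with loxP sites in the Eed gene, which encodes a PRC2 subunit, and the 3 lines compared here all carried this floxed allele. Lentivirus with an EF1a promoter and puromycin selection brought in H3.3K27R, H3.3K27M or hEZHIP. H3.3K27M replaces the lysine that PRC2 methylates with methionine and inhibits the enzyme. EZHIP is a protein of posterior fossa ependymoma that binds PRC2, and hEZHIP is its human form. H3.3K27R carries arginine at the same residue, and its line served as the transduced reference. Of the 5 H3K27me3 libraries in the series, 1 for each line, those of the parental cells and of the Eed deletion line, which is 1 clone, were not analysed here. All values therefore describe 3 libraries without replicates, and no difference could be set against replicate spread.

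Cadherins are calcium-dependent adhesion receptors that hold like cells together. Their extracellular repeats bind the cadherins of a neighbouring cell, and catenins link the tails of the classical members to actin. Type I classical cadherins such as Cdh1 (E-cadherin) and Cdh2 (N-cadherin) mark epithelial and mesenchymal or neural tissue, and type II members such as Cdh11 and Cdh6 sort cell groups in the embryo. Atypical members include Cdh23 and Pcdh15, which together form the tip links of inner ear hair cells, and delta protocadherins act mainly in the developing nervous system. PRC2 marks many developmental regulators and tissue-specific genes in cells that do not use them. It concentrates at CpG islands, stretches of DNA rich in the CG dinucleotide, from which the mark can spread into wide domains.

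The 200 bases before the annotated start site are given for 7 of the genes, to show how far CG content differs among members in different states. Each is written 5′ to 3′ in the direction of the gene, read from the mm9 genome, with every CG in capitals. Cdh22 and Pcdh15 had a peak over the start site in all 3 lists, and their stretches held 24 and 25 CG. Pcdh17, Cdh11 and Cdh23 had one in K27R and K27M and held 14, 14 and 3. Cdh1 and Cdh16 had one in K27R alone and held 12 and 0.
Cdh22, chr2:165060354-165060553, minus strand: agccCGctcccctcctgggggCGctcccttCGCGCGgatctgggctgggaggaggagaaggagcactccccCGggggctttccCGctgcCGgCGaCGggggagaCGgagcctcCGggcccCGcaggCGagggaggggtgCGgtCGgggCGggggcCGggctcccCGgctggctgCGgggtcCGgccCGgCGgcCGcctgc
Pcdh15, chr10:72561890-72562089, plus strand: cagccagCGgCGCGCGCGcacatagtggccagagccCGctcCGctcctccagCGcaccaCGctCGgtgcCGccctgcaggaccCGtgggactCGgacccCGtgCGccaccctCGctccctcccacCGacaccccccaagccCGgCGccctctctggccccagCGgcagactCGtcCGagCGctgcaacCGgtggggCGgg
Pcdh17, chr14:84843170-84843369, plus strand: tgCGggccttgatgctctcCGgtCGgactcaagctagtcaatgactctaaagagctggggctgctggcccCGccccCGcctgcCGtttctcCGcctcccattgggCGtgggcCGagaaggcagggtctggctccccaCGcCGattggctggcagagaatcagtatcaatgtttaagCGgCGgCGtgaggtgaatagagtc
Cdh11, chr8:105309012-105309211, minus strand: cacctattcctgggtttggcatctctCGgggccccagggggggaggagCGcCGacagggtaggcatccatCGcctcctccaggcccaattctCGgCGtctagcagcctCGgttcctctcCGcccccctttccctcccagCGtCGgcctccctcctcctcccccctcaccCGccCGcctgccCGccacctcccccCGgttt
Cdh1, chr8:109127051-109127250, plus strand: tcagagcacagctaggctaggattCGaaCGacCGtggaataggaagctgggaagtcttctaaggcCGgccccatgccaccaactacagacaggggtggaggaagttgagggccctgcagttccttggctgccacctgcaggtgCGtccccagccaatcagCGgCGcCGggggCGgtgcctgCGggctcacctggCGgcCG
Cdh23, chr10:60159239-60159438, minus strand: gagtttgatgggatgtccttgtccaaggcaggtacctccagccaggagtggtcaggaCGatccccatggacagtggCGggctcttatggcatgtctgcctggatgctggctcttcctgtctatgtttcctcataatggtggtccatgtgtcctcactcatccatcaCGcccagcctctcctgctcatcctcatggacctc
Cdh16, chr8:107148297-107148496, minus strand: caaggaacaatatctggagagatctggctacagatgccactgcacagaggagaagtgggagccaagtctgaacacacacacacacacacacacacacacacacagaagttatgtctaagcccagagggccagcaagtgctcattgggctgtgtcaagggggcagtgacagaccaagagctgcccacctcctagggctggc

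The lists give positions only, so that a start site is either inside a peak or not, and the strength of the mark and the depth of the libraries are unknown. A bulk library cannot tell a mark present in some of the cells from a weaker mark in all of them. Peaks lay on a grid of 200 bp bins, and their positions are printed counting from 1. Over the autosomes the lists held 12093 peaks in K27R, 3338 in K27M and 4890 in EZHIP. As a check of the cell type, the start sites of 10 fibroblast markers were looked up. The K27R list covered 1 of the 10, Pdgfra, with a peak of 35.2 kb, and Col1a1, Col1a2, Col3a1, Thy1, Pdgfrb, Vim, Fn1, S100a4 and Prrx1 lay outside it. Pdgfra also had a peak in K27M (11.8 kb) and EZHIP (7 kb). Of 12 markers of other lineages, 7 lay in K27R peaks (Epcam, Krt5, Krt14, Myod1, Neurod1, Sox2 and Alb). Pecam1, Tek, Ptprc, Cd34 and Gfap, also markers of other lineages, lay outside. Over all autosomal protein-coding genes, K27R peaks covered 28.2% of start sites. The absence of a peak thus does not by itself identify the cell type. A peak says nothing of transcription, which these files do not measure.

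The first comparison asked how many cadherin start sites carried H3K27me3 in the reference line and how many still did in the presence of each inhibitor. K27R peaks covered 21 of 33 start sites (63.6%), where they covered 28.2% of all autosomal protein-coding genes. K27M peaks covered 10 (30.3%, against 8.94% of all genes) and EZHIP peaks 6 (18.2%, against 7.96%). Each share of the cadherins was thus above the background of its list. Every member start site covered in K27M or EZHIP was covered in K27R as well. Over all genes this held for 1911 of 1915 start sites in K27M and 1701 of 1705 in EZHIP, so it is not particular to cadherins.

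Among the 21 start sites in K27R peaks, 10 were also in a K27M peak (47.6%), and the background share was 31.6%. Such start sites are called kept. EZHIP peaks covered 6 of the 21 (28.6%), which was near the background of 28.2%. All 6 were among the 10 of K27M. These 6, in both lists, were Cdh6, Cdh22, Pcdh1, Pcdh7, Pcdh8 and Pcdh15, and 24.1% of all K27R genes were in both. In K27M and not in EZHIP were Cdh11, Cdh23, Pcdh10 and Pcdh17, 4 of 21 against a background of 7.50%. None was in EZHIP and not K27M, where 4.02% of all K27R genes were. Read the other way, EZHIP covered 6 of the 10 start sites kept in K27M (60%), against 76.3% over all genes. The remaining 11 K27R start sites, which were in neither inhibitor list, belonged to Cdh1, Cdh4, Cdh5, Cdh7, Cdh8, Cdh12, Cdh15, Cdh16, Cdh20, Pcdh12 and Pcdh20.

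**Figure D1:**
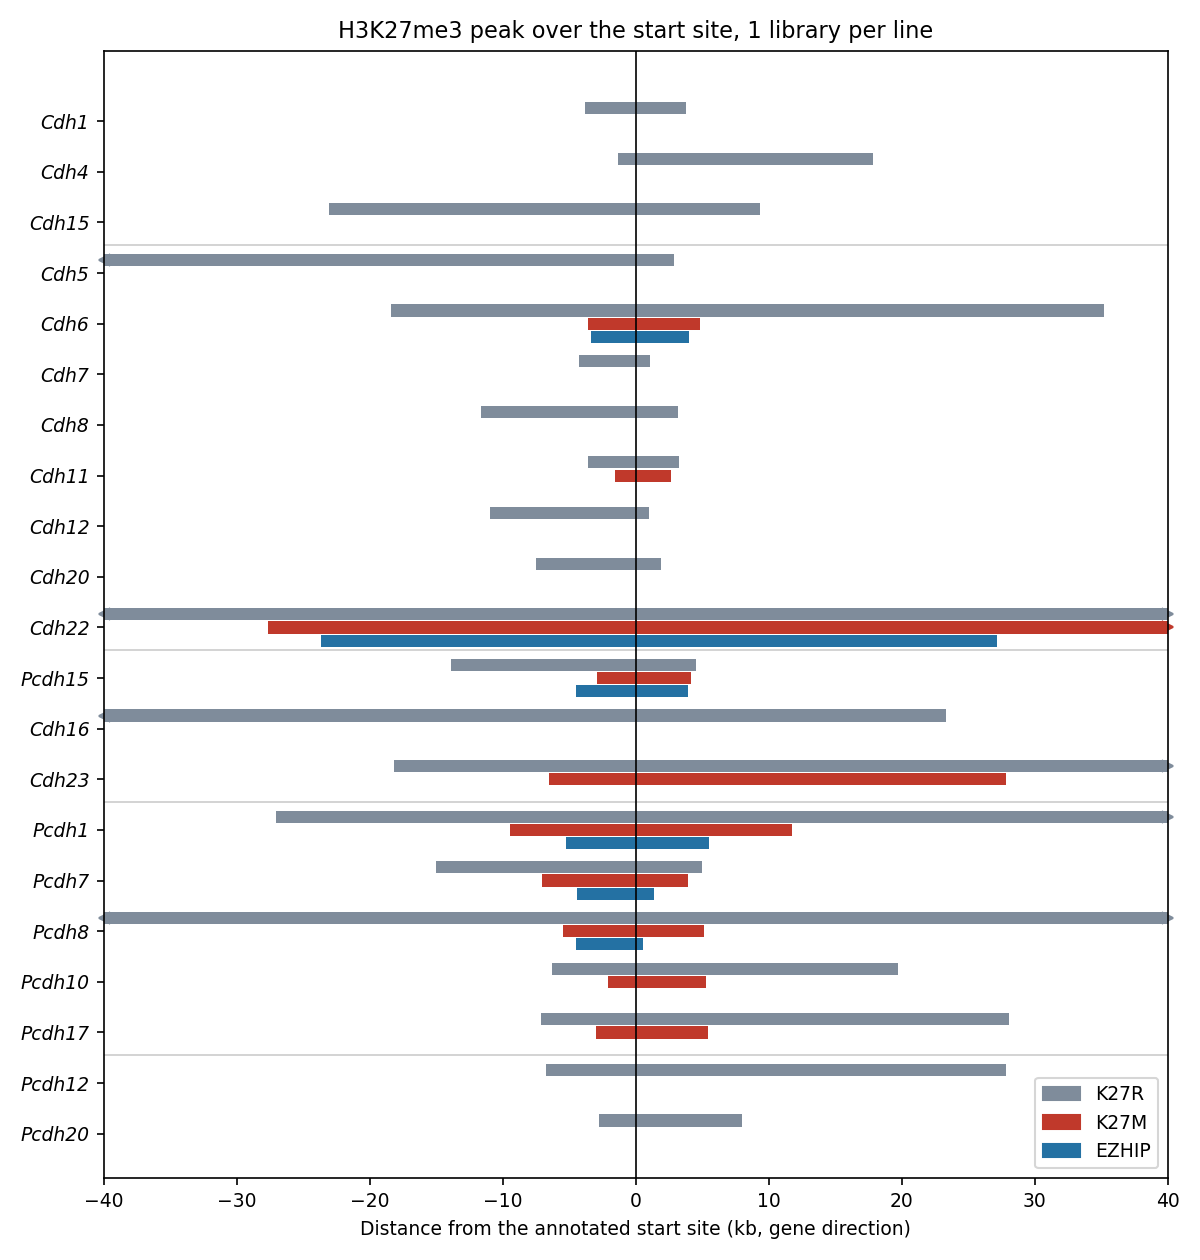
Extent of the H3K27me3 peak over the annotated start site of the 21 members with a K27R peak there, in kb from the start site in the direction of the gene, with 1 library per line (K27R grey, K27M red, EZHIP blue). Horizontal lines part type I, type II, atypical cadherins, delta protocadherins and other protocadherins, and arrowheads mark peaks that run past 40 kb. K27M peaks are present at 10 genes and EZHIP peaks at 6, and each type I gene shows a K27R peak alone.

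By class, the type I classical cadherins kept no peak in either inhibitor list. Of 5 genes, Cdh1 (E-cadherin of epithelia), Cdh4 (R-cadherin) and Cdh15 (M-cadherin of muscle) had a K27R peak over the start site. Cdh2 (N-cadherin of neural and mesenchymal cells) and Cdh3 (P-cadherin) had none in any list. Among the delta protocadherins, K27R peaks covered the start site in 5 of 7, namely Pcdh1, Pcdh7, Pcdh8, Pcdh10 and Pcdh17, and all 5 were kept in K27M. EZHIP covered 3 of them, Pcdh1, Pcdh7 and Pcdh8, while Pcdh9 and Pcdh18 lay outside the K27R peaks. All 5 delta genes in K27R peaks had a CpG island within 500 bp of the start site, as had Cdh1 and Cdh4, while Cdh15 had none. Over all K27R genes 31.6% were kept in K27M and 28.2% in EZHIP. Among those with such an island the shares were 55.4% and 48.3%. The classes are small, and these counts are a description of 3 libraries.

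Type II classical cadherins, many of which pattern the nervous system, numbered 13. Of these genes, 8 had a K27R peak over the start site: Cdh5 (VE-cadherin of endothelium), Cdh6, Cdh7, Cdh8, Cdh11 (the cadherin of osteoblasts and mesenchyme), Cdh12, Cdh20 and Cdh22. K27M peaks covered 3 of the 8 (Cdh6, Cdh11 and Cdh22) and EZHIP peaks 2 (Cdh6 and Cdh22). Cdh9, Cdh10, Cdh18, Cdh19 and Cdh24 lay outside the K27R peaks. Among 6 atypical cadherins, K27R peaks covered Cdh16 (a cadherin of kidney epithelium), Cdh23 and Pcdh15, K27M peaks Cdh23 and Pcdh15, and EZHIP peaks Pcdh15. Cdh13 (T-cadherin, held by a lipid anchor), Cdh17 (a cadherin of intestine) and Cdh26 lay outside. The other protocadherins, Pcdh12 of endothelium and Pcdh20, had a K27R peak and no inhibitor peak.

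CpG content at the start site was then compared between these states, because the rule did not use it. The number of CG dinucleotides was counted over 500 bp on either side of each start site. In the 6 genes kept in EZHIP it ranged from 55 (Cdh6) to 97 (Cdh22), with a median of 78, against 57 for all genes in that state. The 10 genes kept in K27M ranged from 14 to 97, with a median of 63 against 59 for all genes. The 11 genes in neither inhibitor list had a median of 23 and ranged from 12 (Cdh16) to 105 (Cdh4), where the median of all such genes was 17. The ranges overlapped: Cdh4, Cdh1 (67) and Cdh8 (64) held more CG than Cdh6 and had a peak in K27R alone. Outside the K27R peaks, the 12 members had a median of 17.5 against 47 for all genes. Cdh2 held 109, the highest of the 33, and had no peak at all.

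**Figure D2:**
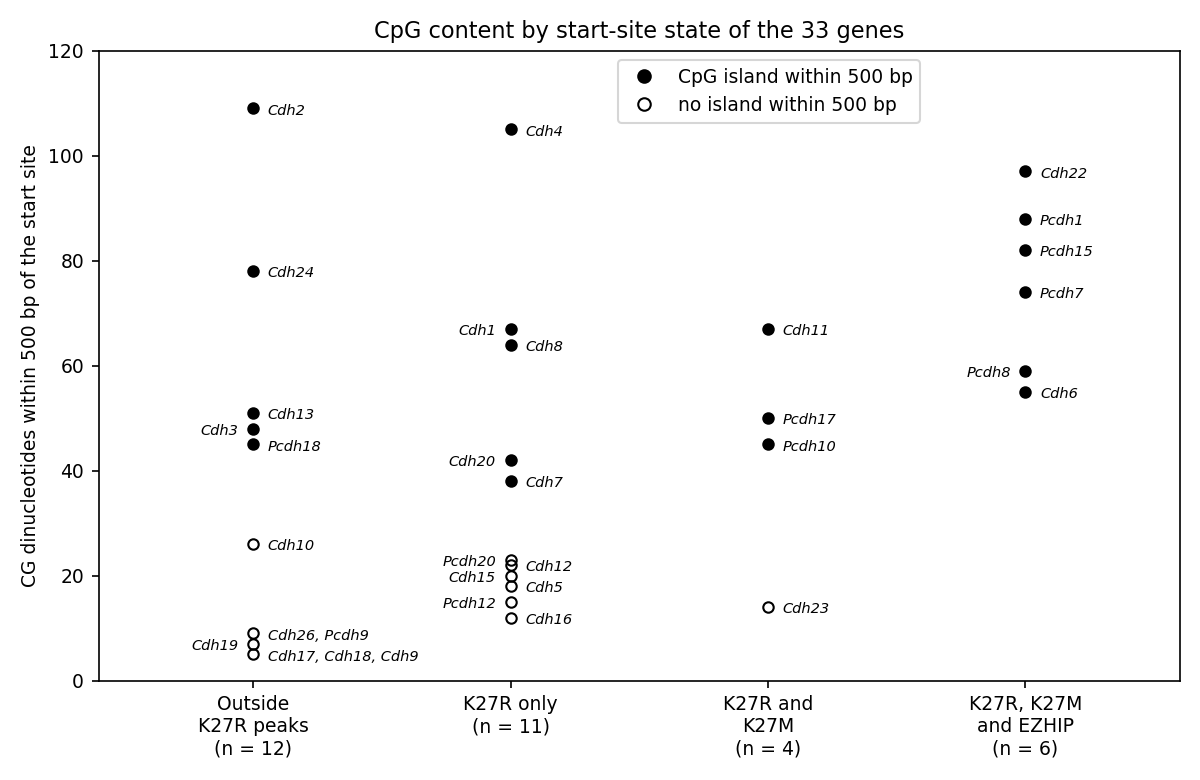
Number of CG dinucleotides within 500 bp on either side of the start site of each of the 33 genes, grouped by whether the start site lay outside K27R peaks (n = 12), in K27R alone (n = 11), in K27R and K27M (n = 4) or in all 3 lists (n = 6). Filled points have a CpG island within 500 bp and open points have none. All 6 genes in the 3 lists are filled and hold 55 to 97 CG, and Cdh23 is the open point kept in K27M.

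A CpG island, called from the mm9 sequence, lay within 500 bp of the start site in 19 of the 33 genes. Of the 21 K27R genes, 14 had such an island. Among these, K27M peaks covered 9 (64.3%), where they covered 55.4% of all K27R genes with an island, and EZHIP peaks covered 6 (42.9%, against 48.3%). Cdh1, Cdh4, Cdh7, Cdh8 and Cdh20 had an island and no inhibitor peak. Of the 7 genes without an island, Cdh23 was kept in K27M, 1 of 7 against 12.5% of all such genes. None was kept in EZHIP, against 12.0%. The shares of cadherins with an island were near the background in both lists. Members outside the K27R peaks included 5 with an island (Cdh2, Cdh3, Cdh13, Cdh24 and Pcdh18) and 7 without (Cdh9, Cdh10, Cdh17, Cdh18, Cdh19, Cdh26 and Pcdh9).

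Islands elsewhere in the genes were counted over each gene and 5000 bp upstream of it, a step chosen after the data were seen. There were 72 islands at 27 of the 33 genes. K27R peaks overlapped 36 of them, K27M peaks 23 and EZHIP peaks 16, while over all autosomal islands the shares were 24.0%, 11.5% and 9.99%. In each of the 10 genes with a K27M peak in the body, the longest island of the gene lay under a K27M peak, which held for 86.1% of all genes with an island and such a peak. The same was true of the 9 genes with an EZHIP peak in the body, against 82.2%. The longest island of the 10 genes kept in K27M had a median length of 1931.5 bp, from 306 bp (Cdh6) to 3261 bp (Pcdh7). For all genes in that state with an island it was 901 bp. In the 5 genes with an island at the start and a K27R peak alone, it had a median of 989 bp, from 731 bp (Cdh1) to 1483 bp (Cdh4), against 610 bp. The longest island need not be the one at the start site. In Cdh20 it was the 989 bp island, 200.084 kb from the start site and outside the K27R peaks, and the island at the start had 439 bp. In Cdh23, Pcdh10 and Pcdh17 of the kept genes it also lay more than 500 bp from the start site. The ranges overlapped, since Cdh6, Cdh11 (471 bp) and Pcdh15 (1075 bp) of the kept genes had an island shorter than that of Cdh4.

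Peaks over the start site differed in width between the lists. In K27R the 21 cadherin peaks had a median width of 26 kb, from 5.4 kb (Cdh7) to 334 kb (Cdh23), where all genes had a median of 87.2 kb. Median widths were 9.5 kb for the 10 peaks of K27M (4.2 to 208.4 kb, all genes 11.6 kb) and 7.9 kb for the 6 of EZHIP (5 to 50.8 kb, all genes 8.4 kb). Compared gene by gene, the K27R peak was a median of 3.85 times as wide as the K27M peak, from 1.20 times at Cdh22 to 17.1 times at Pcdh8, against 7.18 over all genes. It was 6.08 times as wide as the EZHIP peak, from 2.19 times at Pcdh15 to 36.2 times at Pcdh8, against 11.7. At Pcdh8 the K27R peak spanned 180.8 kb, the K27M peak 10.6 kb and the EZHIP peak 5 kb. Cdh6 had peaks of 53.6, 8.4 and 7.4 kb in the same order, and Pcdh7 had peaks of 20, 11 and 5.8 kb.

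The EZHIP peak was the narrower of the inhibitor peaks at 5 of the 6 genes with both, where this held for 78.5% of 1458 genes. It lay wholly inside the K27M peak at the same 5 genes, a count that was not made over all genes. The exception was Pcdh15, with 8.4 kb in EZHIP and 7 kb in K27M. The K27R peak at genes kept in K27M had a median of 44.4 kb, against 14.8 kb at the 11 genes in neither list, and the ranges of 6.8 to 334 kb and 5.4 to 256.4 kb overlapped. Over all genes these medians were 108.4 and 77 kb, so the direction was the same.

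Cdh22, a type II cadherin of brain, had the widest residual peaks of the group. The gene (ENSMUSG00000053166.7) lies on chromosome 2 from 164937007 to 165060353 (mm9, minus strand) and held 17.3 CG per kb. A K27R peak of 249.4 kb, from 164857001 to 165106400, covered all of it together with the start sites of 3 other genes. The K27M peak spanned 208.4 kb, from 164879601 to 165088000, and still covered the whole gene. It ranked 2 by width among the 3338 autosomal K27M peaks. EZHIP had 7 separate peaks over the gene, which covered 77.5% of the gene. The one over the start site ran for 50.8 kb from 165033201 to 165084000, and ranked 39 among 4890. With peaks up to 10000 bp apart merged in every list, the widths over the start site became 220.8 kb in K27M and 91 kb in EZHIP, and EZHIP peaks covered 91.2% of the gene.

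Cdh23 showed the mark along most of a gene of 393.743 kb. The gene (ENSMUSG00000012819.8) is on chromosome 10 from 59765496 to 60159238 (minus strand). A K27R peak of 334 kb, from 59843401 to 60177400, covered the start site, and 3 K27R peaks together covered 89.3% of the gene. In K27M the start site lay in a peak of 34.4 kb from 60131401 to 60165800. Another 8 K27M peaks of 2 to 14 kb lay further along the gene, and all 9 together covered 23.2% of it. None of those 8 overlapped a CpG island, and they held between 10.2 and 16.6 CG per kb, where the whole gene held 13.0. EZHIP had 7 peaks over 11.4% of the gene, of which 5 lay between 170.8 and 268.8 kb from the start site, each overlapping a K27M peak. EZHIP peaks lay on both sides of the start site without covering it, and both overlapped the K27M peak there. The nearer one, of 2.6 kb from 60160801 to 60163400, was 1.563 kb upstream. The other, of 12.4 kb from 60142001 to 60154400, began 4.838 kb downstream and covered the longest island of the gene (1833 bp).

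Pcdh10 and Pcdh17, delta protocadherins of the nervous system, also had an EZHIP peak downstream of the start site over the longest island, and none upstream within the K27R peak. Pcdh10 (ENSMUSG00000049100.8) is on chromosome 3 from 45182320 to 45238488 (plus strand). Its start site lay in a K27R peak of 26 kb (45176001 to 45202000) and a K27M peak of 7.4 kb (45180201 to 45187600). An EZHIP peak of 1.8 kb, from 45183601 to 45185400, began 1.281 kb downstream, over an island of 2030 bp. Pcdh17 (ENSMUSG00000035566.6) is on chromosome 14 from 84843370 to 84936867 (plus strand), with a K27R peak of 35.2 kb (84836201 to 84871400) and a K27M peak of 8.4 kb (84840401 to 84848800). Its EZHIP peak of 1.2 kb, from 84845601 to 84846800, began 2.231 kb downstream, over an island of 2300 bp. CG density was highest in these EZHIP peaks: at Pcdh10 it was 78.3 per kb in the EZHIP peak, 46.6 in the K27M peak and 18.6 in the K27R peak. The values at Pcdh17 were 74.2, 40.5 and 13.4. Both EZHIP peaks lay wholly inside the island and inside the wider K27M and K27R peaks. This order of densities therefore follows from their position and width. Of the genes with both inhibitor peaks over the start site, Cdh6, Cdh22, Pcdh1 and Pcdh7 also had the higher density in EZHIP. The order was reversed at Pcdh8, with 30 in EZHIP and 40.4 in K27M, and at Pcdh15, with 28.2 and 32.3. Densities in peaks were not computed over all genes.

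Thus 3 of the 4 genes in K27M and not EZHIP had an EZHIP peak within 5000 bp of the start site. Counted at that distance, EZHIP had a peak at 9 of the 10 members with a K27M peak (90.0%), against 80.3% over 2406 genes. The exception was Cdh11 (ENSMUSG00000031673.5; chromosome 8 from 105156895 to 105309011, minus strand), a cadherin typical of mesenchymal cells. It had a K27R peak of 6.8 kb (105305801 to 105312600) and a K27M peak of 4.2 kb (105306401 to 105310600), the narrowest of the 10. The nearest EZHIP peak was 1384.99 kb from its start site. This K27M peak is absent if only peaks of at least 5000 bp are counted.

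**Figure D3:**
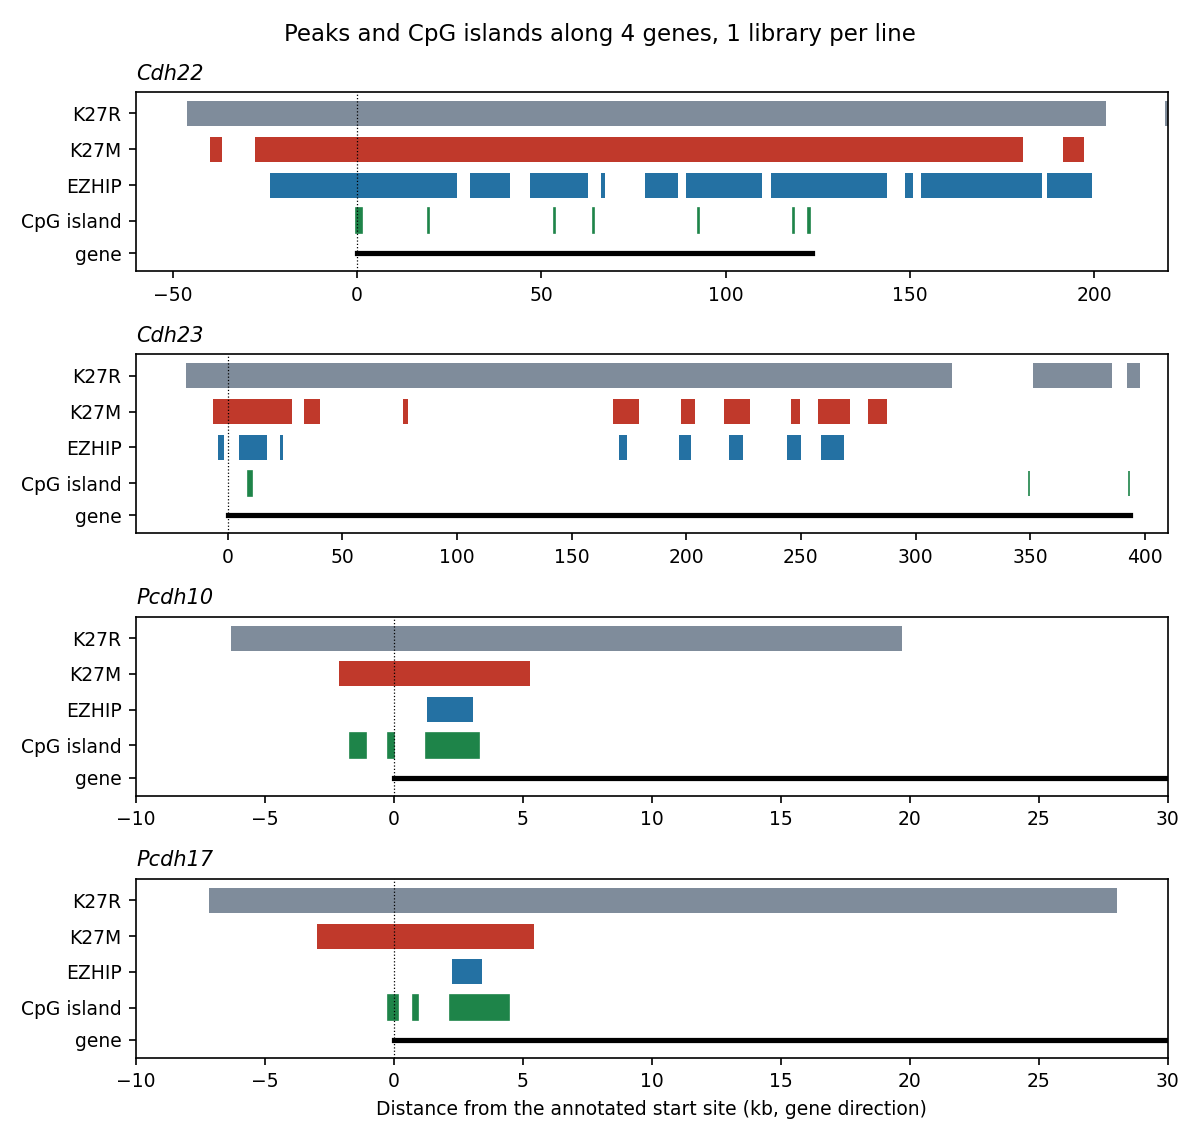
H3K27me3 peaks of K27R (grey), K27M (red) and EZHIP (blue), CpG islands of the gene and 5000 bp upstream (green) and the gene (black) along Cdh22, Cdh23, Pcdh10 and Pcdh17, in kb from the start site in the direction of the gene, with the start site dotted and 1 library per line. At Cdh23, Pcdh10 and Pcdh17 an EZHIP peak lies downstream of the start site over the longest island of the gene, inside the K27M peak. At Cdh23 another EZHIP peak lies 1.563 kb upstream of the start site. The genes Pcdh10 and Pcdh17 run past the right edge.

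Pcdh15, the partner of Cdh23 in the tip link, is the longest of the 33 genes at 1550.39 kb (ENSMUSG00000052613.8; chromosome 10 from 72562090 to 74112482, plus strand). K27R had 13 peaks in it, covering 8.67% of its length, and only the one over the start site overlapped an inhibitor peak. There the K27R peak ran for 18.4 kb (72548201 to 72566600), the K27M peak for 7 kb (72559201 to 72566200) and the EZHIP peak for 8.4 kb (72557601 to 72566000). The other 12 K27R peaks overlapped no CpG island. Pcdh1 (ENSMUSG00000051375.9; chromosome 18 from 38345569 to 38371707, minus strand), a delta protocadherin also known from airway epithelium, lay wholly in a K27R peak of 265.8 kb (38133001 to 38398800). It kept 21.2 kb in K27M (38360001 to 38381200) and 10.8 kb in EZHIP (38366201 to 38377000), or 44.8% and 21.1% of the gene.

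The widest K27R peaks with no inhibitor peak over the start site were those of Cdh16, Cdh5 and Pcdh12. Cdh16 (ENSMUSG00000031881.4; chromosome 8 from 107125813 to 107148296, minus strand) was wholly inside a K27R peak of 256.4 kb (107125001 to 107381400) that also held the start sites of 5 other genes. The same K27R peak held 1 K27M and 1 EZHIP peak, each of 1.2 kb, which lay 28.1 and 31.9 kb upstream of the start site. Cdh5 (ENSMUSG00000031871.8; chromosome 8 from 106625525 to 106668402, plus strand) had a K27R peak of 69 kb over the start site (106559401 to 106628400) and another from 106643201 to 106743600, which together covered 65.5% of the gene. The inhibitor peaks nearest to its start site lay past the end of the gene in this other K27R peak, 54.1 kb downstream of the start site in K27M (3.4 kb wide) and 68.5 kb in EZHIP (3.6 kb wide). They were 11.2 and 25.6 kb from the gene. Pcdh12 (ENSMUSG00000024440.6; chromosome 18 from 38426746 to 38444055, minus strand) lay inside a K27R peak of 34.6 kb (38416201 to 38450800), and the inhibitor peaks nearest to its start site, 62.9 and 67.1 kb downstream, were those over the start of Pcdh1. All 3 start sites had no CpG island and held 12 to 18 CG within 500 bp on either side.

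Cdh1 and Cdh2, the pair that changes places when epithelial cells take on a mesenchymal state, differed in K27R. Cdh1 (ENSMUSG00000000303.6; chromosome 8 from 109127251 to 109194146, plus strand) had a K27R peak of 7.6 kb over the start site (109123401 to 109131000), which covered 5.61% of the gene. The nearest inhibitor peaks were 263.75 kb from the start site in K27M and 264.95 kb in EZHIP, although the start site has an island and 67 CG. Cdh2 (ENSMUSG00000024304.8; chromosome 18 from 16747386 to 16967755, minus strand) had no peak in any list, with the nearest K27R peak 319.355 kb from the start site. The nearest inhibitor peaks were at 1650.95 kb in K27M and 1650.56 kb in EZHIP. Cdh3, which neighbours Cdh1, also had none, and its nearest K27R peak was 88.61 kb from the start site.

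Cover of whole gene bodies was measured because cadherins are long genes, with a median length of 93.498 kb against 15.535 kb for all genes. K27R peaks overlapped 22 of the 33 gene bodies, against 34.2% of all genes. K27M peaks overlapped 10 (11.3% of all genes) and EZHIP peaks 9 (10.9%). The 16 members of 100 kb or more were also set beside all genes of that length. K27R overlapped 12 of the 16 (50.0% of all such genes), K27M 6 (23.1%) and EZHIP 5 (21.0%). Thus members of 100 kb or more were overlapped more often than all genes of 100 kb or more in each list, with no test of the difference. The counts are small, lengths within that group were not matched, and shorter members were not compared by length.

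The mark covered little of most cadherin genes. Among those with any overlap, K27R covered a median of 28.7% of the body, against 100% over all genes with an overlap. K27M covered 7.61% (all genes 24.3%) and EZHIP 3.20% (all genes 20.2%). These comparisons were not matched for gene length. With genes without overlap included, the K27R median was 5.61% for the members and 0 for all genes. For genes of 100 kb or more it was 1.77% for the members and 0 for all genes. K27R peaks held 6 genes whole, namely Cdh16, Cdh22, Pcdh1, Pcdh8, Pcdh12 and Pcdh20. They touched under 3% of the body in Cdh7, Cdh8, Cdh11, Cdh12 and Pcdh7. Cdh13 was the only member with K27R peaks in the body and none over the start site, with 7 peaks over 16.5% of its 1041.19 kb, the nearest beginning 649.368 kb from the start site. The last of these peaks held another annotated transcript start of Cdh13.

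**Figure D4:**
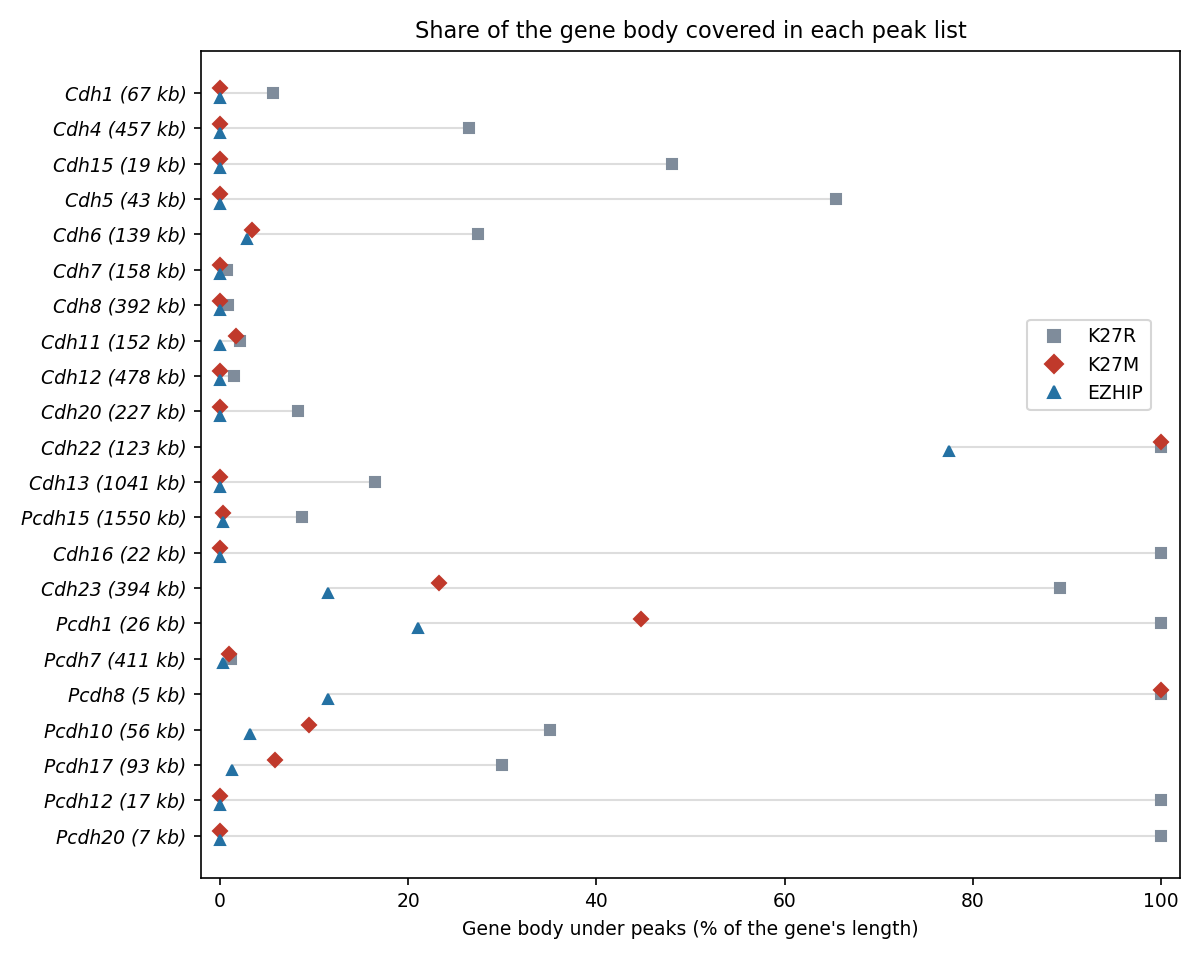
Percent of the gene body under peaks in K27R (grey squares), K27M (red diamonds) and EZHIP (blue triangles) for the 22 members with any K27R peak in the body, with the length of each gene in brackets. Cdh22 keeps 100% in K27M and 77.5% in EZHIP, and at 12 of the 22 genes both inhibitor values are 0.

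Peaks inside the genes and away from the start site were counted next. K27R had 50 peaks in member genes, 21 over the start site and 29 elsewhere in 8 genes. K27M had 18, of which 8 lay away from the start site, all in Cdh23. EZHIP had 21, of which 15 lay away from it in 4 genes (Cdh22, Cdh23, Pcdh10 and Pcdh17), and 6 of these 15 overlapped a CpG island. Every K27M and EZHIP peak at a member overlapped a K27R peak. At start sites this was near general, since 1911 of 1915 in K27M and 1701 of 1705 in EZHIP over all genes lay in K27R peaks.

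Chromosome 15 is set apart because EZHIP peaks were many there, with 338 against 143 in K27M and 497 in K27R. It holds 5 members, the type II genes Cdh6, Cdh9, Cdh10, Cdh12 and Cdh18, of which Cdh6 and Cdh12 were in K27R peaks. Cdh6 was kept in both inhibitor lists and Cdh12 in neither. Over all K27R genes of the chromosome, 35.1% were kept in EZHIP and 29.8% in K27M.

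Other genes of cadherin adhesion were looked up in lists made from general knowledge of the field. Desmosomal cadherins, which join epithelial cells at desmosomes, had a K27R peak over the start site in 2 of 9 (Dsc3 with 10 kb and Dsg2 with 30.8 kb) and no inhibitor peak. Of 18 catenins and junction partners, 3 were in K27R peaks, and Ctnnd2 (delta-catenin) and Pkp1 (plakophilin) were kept in both inhibitor lists. Pvrl3, a nectin, was in K27R alone. Thus 2 of 18 were in each inhibitor list, near the background of all genes. The K27R shares of these groups, 2 of 9 and 3 of 18, were both below the 28.2% of all genes. Large atypical cadherins and relatives with cadherin repeats had 9 of 17 start sites in K27R, 5 in K27M and 4 in EZHIP, where 28.2%, 8.94% and 7.96% of all genes were covered. Celsr1, Celsr2 and Celsr3, the planar cell polarity cadherins, and Ret, the receptor for glial cell line-derived ligands, were kept in both, and Clstn2 in K27M alone. Fat2, Cdhr1, Cdhr2 and Cdhr3 were in K27R alone, and none of these 4 had an island at the start site.

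Among 12 regulators of the change between Cdh1 and Cdh2, 5 were in K27R peaks, 4 in K27M and 4 in EZHIP, beside the same shares of all genes. Of all genes in K27R peaks, 31.6% were kept in K27M and 28.2% in EZHIP. All 5 of these regulators had an island at the start site. Among all K27R genes with an island, 55.4% were kept in K27M and 48.3% in EZHIP. The regulators kept in both were Grhl2, Ovol1, Ovol2 and Esrp1, which promote the epithelial state. Their peaks spanned 45.8 to 280.2 kb in K27R, 12.6 to 32.2 kb in K27M and 8.6 to 19.4 kb in EZHIP. Esrp2, a splicing factor of epithelia like Esrp1, was in K27R alone, with 9.6 kb. The Snai, Zeb and Twist genes, which repress Cdh1, had no peak over the start site in any list. Cdh1 itself had a K27R peak and no inhibitor peak, while 4 of the 5 regulators in K27R peaks kept one in both lists.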

How the data were processed

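H3K27me3 ChIP-Seq was measured in MEF lines with 1 library each, from crosslinked chromatin digested with MNase, with chromatin of another species added. By the study's methods and processing notes, the authors aligned reads with Bowtie 1.0.0 to mm9 and called broad peaks with MOSAiCS-HMM, which fits a hidden Markov model to read counts in bins. The deposited lists hold chromosome, start and end only. The paper's methods give a maximum gap setting of 10000 for these calls. The lists nevertheless hold neighbouring peaks closer than 10000 bp, such as the EZHIP peaks over Cdh22. Whether they were made with that setting is therefore not known, and counts of separate peaks and peak widths depend on it. Whether scaling to the added chromatin entered the calls, and which library served as background, is not given in the sources used here. Groups came from the sample titles.

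The 5′ end of each gene in GENCODE vM1 was its start site, in a list when a peak covered that base, and gene bodies overlapped at 1 bp or more. The genes, classes and partner lists were chosen with earlier results of these data known. Every member was named, with positions for the 3 widest peaks over a start site in K27M and in EZHIP, start sites in 1 inhibitor list, the 3 widest K27R peaks over a start site with no inhibitor peak over it, and Cdh1, Cdh2, Cdh5 and Cdh11. CpG islands were segments of the mm9 sequence scored 17 per CG and -1 per other base, longer than 200 bp, with G+C of 50% or more and a ratio of observed to expected CpG above 0.6, which gave 27075 islands on chromosomes 1 to 19 and X. Counts stand beside the same counts over all genes, with no p-value, since genes and peaks are not replicates. Interval and island steps were tested on simulated data. Python 3.11.15, numpy 2.4.6, scipy 1.17.1, numba 0.67.0 and matplotlib 3.10.9 were used.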

Additional observations from a re-analysis of the deposited data

How the results depend on the processing

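Each count and median over the cadherins was computed again with any annotated transcript start, with a peak within 5000 bp of the start site, with peaks up to 10000 bp apart merged, with minimum widths of 2000 or 5000 bp, without chromosome 15, and with stricter rules for cover and islands. Of 99 such values, 91 stayed within 1.5 times the count or inside the 95% interval of the median, and 8 did not. That interval was taken over the genes, which are not replicates. For the 6 EZHIP peak widths it was their whole range, 5 to 50.8 kb, so staying inside it says little. Start sites in K27M and not EZHIP numbered 4 and became 1 when a peak within 5000 bp counted, as Pcdh10, Pcdh17 and Cdh23 then had an EZHIP peak. Cdh23 also had one after merging. With at least 10% of the gene body covered, K27R peaks overlapped 14 genes, K27M peaks 4 and EZHIP peaks 4, in place of 22, 10 and 9. The mean percent of the body covered was 8.78 in K27M and 3.92 in EZHIP, where both medians were 0. With islands of at least 500 bp, 9 K27R start sites had an island and K27M kept 5, in place of 14 and 9. EZHIP then also kept 5 of the 9, in place of 6 of the 14, so the lists no longer differed in this count. Cdh13 had a K27R peak at another transcript start, and Cdh11 had no K27M peak of 5000 bp or more. No paired analysis was possible because each line had 1 library and no test was run. Without read counts, a start site outside a peak may still carry the mark below the caller's limit, and leaving out a replicate was not possible.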
